A study of Mus musculus with 2 samples.

Results

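Tetraspanins are small membrane proteins that cross the membrane several times, expose a short and a long loop outside the cell, and gather integrins, proteases and receptors around them in the plane of the membrane. Some act as escorts that carry a partner from the endoplasmic reticulum to the cell surface, and others sit in late endosomes and in the vesicles that cells release. In brain, members of the family are known from neurons, oligodendrocytes, astrocytes, microglia and blood vessels, so a tissue sample holds transcripts of the family from several kinds of cell. Here the members were chosen by symbol: those of the form Tspan followed by a number, together with Cd9, Cd37, Cd53, Cd63, Cd81, Cd82 and Cd151. This matched 27 of the 32531 symbols counted. Symbols beginning with Tspan had been seen to be lower in the escalating library, so the family was selected on the same contrast that is described below, and no difference between the libraries is offered as support.

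The libraries came from dorsal striatum of Drd1-TRAP mice of line CP73, in which cells expressing the dopamine receptor Drd1 carry an EGFP-tagged ribosomal protein, Rpl10a, from a bacterial artificial chromosome. The strain was an FVB/N and Swiss Webster mix bred to C57BL/6 over at least 9 generations. All animals had taken cocaine intravenously in long-access self-administration sessions. There was 1 library of input (total tissue) RNA from the group labelled escalating and 1 from the group labelled nonescalating. The labels name neither the age nor the number of animals behind a library, and neither library is from mice without cocaine. The projection neuron genes Drd1, Drd2, Penk, Tac1 and Ppp1r1b had at least 808 counts in each library.

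Reads assigned to genes numbered 9548358 (escalating) and 9376097 (nonescalating). Values are CPM, the counts per 1000000 reads of a library size scaled with edgeR's TMM factors, and pairs of values give the escalating library first. A ratio is escalating over nonescalating. No difference could be checked against replicates, so p-values are absent. Each ratio has a 95% interval (exact, Clopper-Pearson, on the split of the counts) that covers counting error alone. A gene with at least 50 counts over the libraries was called higher or lower when its log2 ratio (pseudocount 0.5) passed 1.5-fold and its interval excluded 1. By that rule 17.1% of 12213 genes were called lower and 9.36% higher. Scaled to total assigned reads instead, 9.4% were lower and 31.5% higher, and the median log2 ratio of all these genes moved from 0.02 to 0.38. Reads in no annotated gene made up 28.6% (escalating) and 18.1% (nonescalating) of all reads, and the part of this gap in any ratio was not tested.

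Of the 27 tetraspanin genes, 20 had at least 50 counts, 5 had fewer and 2 had no read. Among the 20, 19 were called lower in the escalating library, 0 higher and 1 was not called, with a median log2 ratio of -1.28 beside 0.02 for all genes. With total-read scaling 14 were lower and 0 higher, with a median of -0.92. At 2-fold 14 were lower and 0 higher, where 8.88% of all genes were lower and 2.04% higher. The counts were 19 and 0 with DESeq2 size factors (all genes 17.3% and 9.24%) and with a pseudocount of 5 (16.7% and 8.8%). With no filter beyond 1 count they were 19 and 0 of 25 members (all genes 14.2% and 7.88%). Summed over the family, the escalating library had 8740 reads (808 CPM) and the nonescalating library 14400 (1740 CPM), which was 2.15-fold lower (2.10 to 2.21). The rule used this contrast, so nothing is read from these counts against the background. In tissue RNA, fewer cells of a type and less RNA per cell cannot be told apart.

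The sum rested on a few members. Tspan7 and Cd81 supplied the largest shares, with 31.3% and 16.6% of the family's reads in the library of the escalating group and 33.9% and 19.1% in the other. Per kilobase of annotated exon, which allows genes to be compared, Cd81 stood first in both libraries, at 46.7 CPM per kb against 115. Tspan7 was second, at 35.8 and 83.4 CPM per kb, and Tspan3, Tspan2 and Tspan13 took the next 3 places in an order that differed between the libraries. Their levels per kb were 20.5, 25.1 and 22.8 (escalating) against 42.6, 40.7 and 34.8 (nonescalating). In the nonescalating library the counting intervals of Tspan3 (40.4 to 44.8) and Tspan2 (38.7 to 42.7) overlapped, so these neighbours were not separated. With the longest transcript as the length, Tspan3 moved ahead of Tspan7 in both libraries.

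The order of levels was much the same in the libraries except for a few genes. Across the 20 members the log2 levels per kb had a Pearson's r of 0.83 and a Spearman's rho of 0.82, which describes points that share their libraries and gene lengths. Cd53 was 6th of the family in the nonescalating library, at 20.4 CPM per kb, and 18th in the escalating library, at 0.531. Tspan5 went the other way in rank, from 9th at 12.9 CPM per kb to 6th at 10.9.

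**Figure D1:**
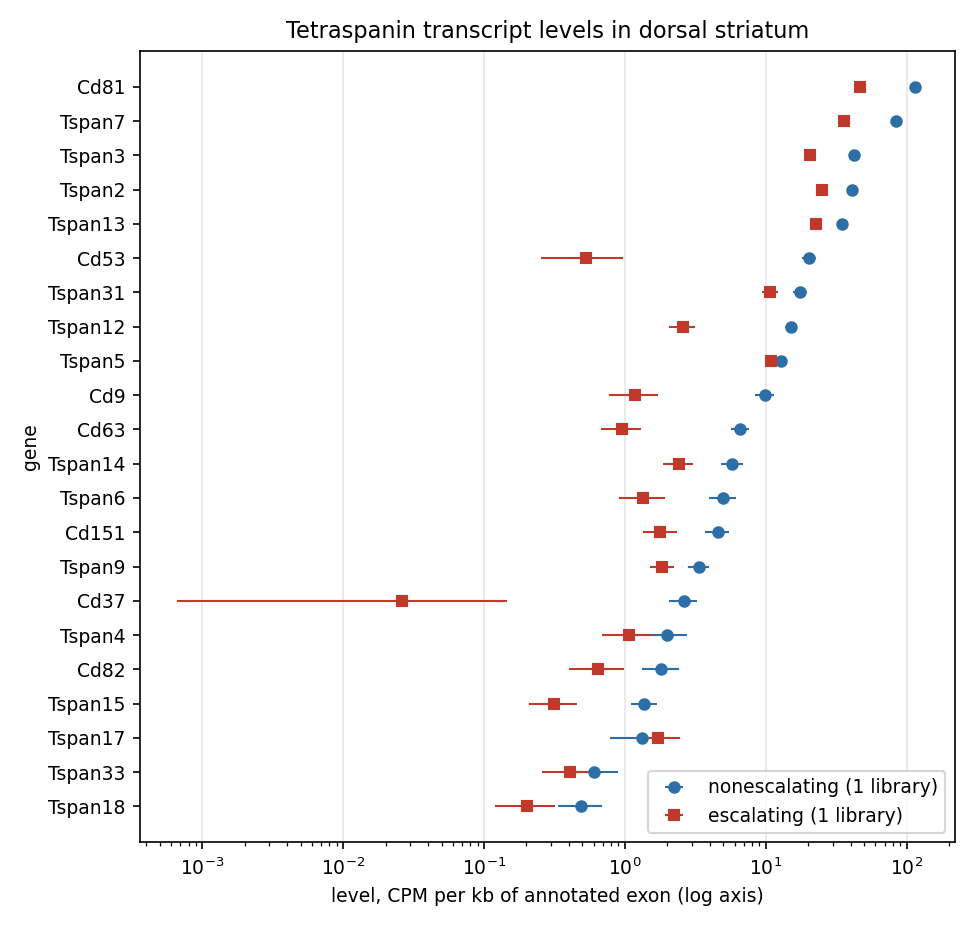
Level of each tetraspanin with at least 40 counts over the libraries, in CPM per kb of annotated exon on a log axis, in the nonescalating (blue circles) and escalating (red squares) library, 1 library each. Bars are exact 95% Poisson counting intervals; Cd81 is at the top in both libraries, and Cd53 and Cd37 show the widest gaps.

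Leukocyte tetraspanins had the lowest ratios. Cd53, a tetraspanin of immune cells that brain tissue has mainly from microglia, had 10 counts in the escalating library and 294 in the nonescalating library, or 0.924 and 35.5 CPM. It was 38.5-fold lower (20.6 to 81.0). Cd37, a B cell and myeloid tetraspanin, had 1 count against 76 and was 99.4-fold lower, with a wide interval (17.3 to 3977) because of its single read. Tspan32, which is also an immune cell gene, had 1 count against 0, so at this depth nothing can be said of it. Microglial markers stood beside these genes: all 12 of a list of 12 were called lower, their summed level was 27.7 CPM against 1234 CPM (44.5-fold lower, 39.7 to 50.1), and Trem2 was at 0 in the escalating library. The part of microglial RNA in the ratios of Cd53 and Cd37 was not tested. Without the leukocyte genes, 17 of 18 tetraspanins were lower, with a median log2 ratio of -1.24.

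The tetraspanins that pair with immunoglobulin-domain proteins and integrins were lower in all 4 cases. Cd9, a surface tetraspanin of myelinating and other glia, had 26 counts against 167 (2.40 and 20.2 CPM) and was 8.40-fold lower (5.53 to 13.2). Its close relative Cd81, which is abundant in astrocytes, had 1455 counts against 2745 (134 and 332 CPM) and was 2.47-fold lower (2.31 to 2.63). Cd151, a laminin-binding integrin partner, had 53 counts against 103 and was 2.54-fold lower (1.81 to 3.61). Cd82, first studied as a suppressor of metastasis, had 21 counts against 45 and was 2.80-fold lower (1.64 to 4.95). The intervals of Cd81, Cd151 and Cd82 overlap, whereas that of Cd9 lies wholly beyond those of the other 3. Cd9 has a processed pseudogene, Cd9-ps, and reads that fit both places would have been set aside in the counting.

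Their protein partners did not all share the pattern. Igsf8, which encodes the immunoglobulin protein EWI-2 bound by Cd9 and Cd81, had 375 counts against 315 and was not called, at 1.10-fold lower (0.943 to 1.28). Ptgfrn, which encodes the related EWI-F, had 157 counts against 194 and was 1.62-fold lower (1.303 to 2.01), a call lost with total-read scaling. Among integrins, Itgb1, the shared beta subunit, was 2.62-fold lower (2.23 to 3.095) and Itga6, the laminin receptor subunit, 5.21-fold lower. Itga3, another laminin-binding partner of Cd151, had 65 counts against 53 and was not called, at 1.07-fold lower (0.728 to 1.56). Itga7, also listed as a partner, had 1 count against 17, under the minimum of 50. Itgb4, with 100 counts against 96, was also not called, at 1.26-fold lower (0.939 to 1.68). Of the integrin genes measured as partners, Itgb5 had the largest difference, with 33 counts against 275, 10.9-fold lower (7.58 to 16.2). The integrin gene Itgam, counted here among the microglial markers, differed more, with 14 counts against 1276, 119-fold lower (70.8 to 219).

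Cd63, a marker of late endosomes, lysosomes and released vesicles, was among the lowest. It had 38 counts against 200 (3.51 and 24.2 CPM) and was 6.88-fold lower (4.85 to 10.01). Cd63 also has a processed pseudogene in the annotation. A list of 18 genes for vesicle sorting and late endosomes was mixed, with 4 lower and 1 higher and a median log2 ratio of 0.01 (3 higher, 4 lower and 0.37 with total-read scaling). Lysosomal membrane genes made up 3 of its 4 lower calls: Lamp1, with 909 counts against 1628, was 2.34-fold lower (2.16 to 2.54), Lamp2 2.66-fold (2.36 to 2.998) and Scarb2 2.51-fold (2.06 to 3.08). The cytosolic sorting genes Sdcbp, which encodes the Cd63 binding protein syntenin, and Pdcd6ip, which encodes ALIX, were not called, with ratios of 0.94 (0.869 to 1.02) and 1.01 (0.928 to 1.10). Vps4a, an ATPase of the ESCRT machinery, had 775 counts against 351 and was 1.69-fold higher (1.49 to 1.92).

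Receptor and channel partners were lower in all 4 cases, to differing extents. Tspan7, an X-linked gene whose protein binds the AMPA receptor adaptor PICK1 and whose loss in people is linked to intellectual disability, had 2736 counts against 4876 (253 and 589 CPM) and was 2.33-fold lower (2.22 to 2.44). Pick1 itself went the other way, with 321 counts against 130, 1.89-fold higher (1.54 to 2.33). It was the only higher call among 29 measured partner genes, of which 16 were lower with a median log2 ratio of -0.79 (14 lower, 2 higher and -0.43 with total-read scaling).

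Tspan12, the co-receptor for the vascular ligand Norrin, was lower along with the rest of that receptor complex. It had 92 counts against 414 (8.50 and 50.04 CPM) and was 5.89-fold lower (4.68 to 7.46). Fzd4, the Norrin receptor, had 30 counts against 73 and was 3.18-fold lower (2.05 to 5.04), and Lrp5, its co-receptor, had 21 against 102 and was 6.35-fold lower (3.94 to 10.7). Ndp, which encodes Norrin, had 15 counts against 42 and was 3.66-fold lower (1.99 to 7.11). All 4 genes were also called lower with total-read scaling. Beside them, 8 of 10 endothelial markers were lower (5 with total-read scaling), with summed levels of 124 and 219 CPM. All 10 astrocyte markers were lower (9 with that scaling), with summed levels of 1877 and 14713 CPM. Most of the astrocyte sums came from a single gene, Slc1a2, at 1421 and 13256 CPM. The part of either cell type was not tested.

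Tspan18 and Tspan13 are both linked to calcium entry. Tspan18, which regulates the store-operated channel Orai1 in endothelium, had 18 counts against 33, just over the minimum, and was 2.40-fold lower (1.31 to 4.52). Orai1 had 17 counts against 61 and was 4.69-fold lower (2.71 to 8.57), while its activator Stim1 was not called, at 1.14-fold lower (1.01 to 1.28). Tspan13, which has been found with voltage-gated calcium channels, had 611 counts against 713 (56.5 and 86.2 CPM) and was 1.53-fold lower (1.37 to 1.70). The call of Tspan13 sits at the threshold and was lost with total-read scaling, where its log2 ratio was -0.25. It was also lost when the 10 symbols with the most reads were left out of the totals (-0.50).

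Tspan5 was the only measured member that was not called. It belongs to the group of 6 tetraspanins (TspanC8) that escort the protease ADAM10, the sheddase of Notch and many neuronal surface proteins, and is known from neurons. It had 875 counts against 786 (80.9 and 95 CPM), 1.17-fold lower (1.07 to 1.295), and with total-read scaling its log2 ratio became positive, at 0.13. Tspan15, which directs ADAM10 to cadherins, had 28 counts against 93 and was 4.34-fold lower (2.82 to 6.89). Tspan14, another escort, had 69 counts against 126 and was 2.39-fold lower (1.77 to 3.25). Tspan17 and Tspan33 fell just short of the minimum, each with 49 counts over the libraries. Tspan17, the nearest relative of Tspan5, had 31 counts against 18 and a ratio of 1.32 (0.714 to 2.50), and Tspan33 had 23 counts against 26 and was 1.48-fold lower (0.811 to 2.71). Tspan10 had 0 counts against 2.

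The shares of the TspanC8 genes within their group do not depend on how the libraries were scaled, and are given as a description of these 2 libraries. Tspan5 supplied 85.3% of the group's 1026 reads (83.0 to 87.4, exact binomial) in the escalating library and 74.8% of 1051 in the nonescalating library (72.0 to 77.4). Tspan15 supplied 2.73% (1.82 to 3.92) and 8.85% (7.20 to 10.7), and Tspan14 6.73% (5.27 to 8.43) and 11.99% (10.1 to 14.1). The shares add up to the whole, so a larger share of Tspan5 goes with smaller shares of the others, and the intervals cover counting error only. Adam10 had 327 counts against 433 and was 1.73-fold lower (1.497 to 2.01), a call lost with total-read scaling. The related protease gene Adam17 was 2.79-fold lower (2.22 to 3.54), and the ADAM10 substrates Notch1 and Notch2 were 2.60-fold and 3.19-fold lower, while Notch3 was not called, with a ratio of 1.08 (0.867 to 1.35).

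**Figure D2:**
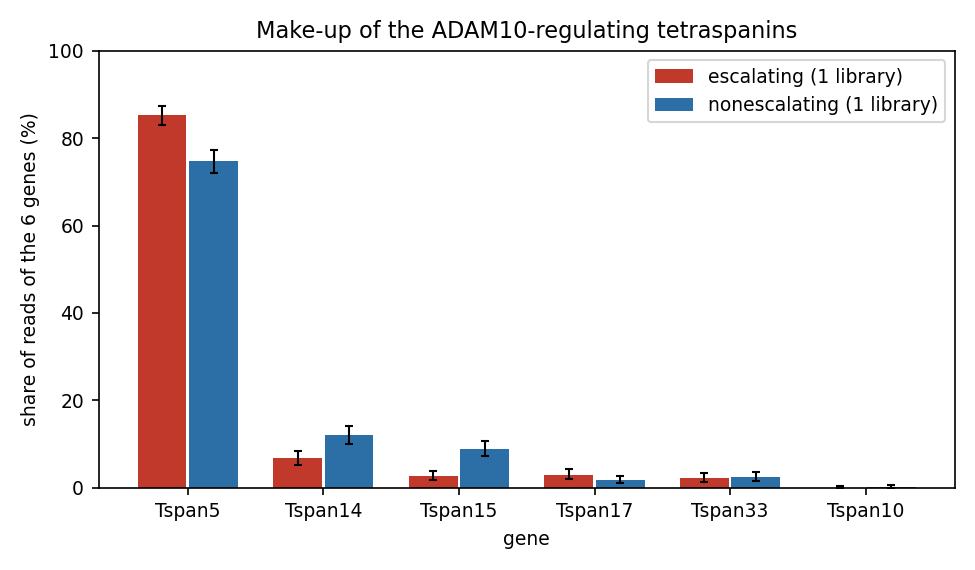
Share of the reads of the 6 ADAM10-regulating tetraspanins held by each gene, in percent, in the escalating (red) and nonescalating (blue) library, 1 library each; bars start at 0 and error bars are exact 95% binomial intervals. Tspan5 held 85.3% against 74.8%, and Tspan14 and Tspan15 held smaller shares in the escalating library.

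Tspan2, the tetraspanin of oligodendrocytes and their precursors, differed less than most of the family. It had 1294 counts against 1600 (120 and 193 CPM) and was 1.62-fold lower (1.502 to 1.74). The call was lost with total-read scaling (log2 ratio -0.33) and when the 10 symbols with the most reads were left out of the totals (-0.58). Of 10 myelin and oligodendrocyte markers 7 were lower, with a median log2 ratio of -0.84 (4 lower and -0.48 with total-read scaling) and summed levels of 1531 and 3938 CPM. Of 6 precursor markers 2 were lower and 1 higher, with a median of -0.24 (0.12 with total-read scaling). The part of these cells in the ratio of Tspan2 was not tested.

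The 5 remaining measured members were all lower. Tspan6, an X-linked gene whose protein has been tied to endosomal sorting, had 30 counts against 84 and was 3.66-fold lower (2.39 to 5.76). Tspan3, a widely expressed member known from oligodendrocytes, had 949 counts against 1505 (87.7 and 182 CPM) and was 2.07-fold lower (1.91 to 2.25). These calls held with total-read scaling, and the next 3 were lost. Tspan9, a platelet and vascular member, had 99 counts against 138 and was 1.82-fold lower (1.398 to 2.38). Tspan4, which builds the migrasomes of moving cells, had 25 counts against 36 and was 1.88-fold lower (1.10 to 3.27). Tspan31 had 255 counts against 319 and was 1.64-fold lower (1.38 to 1.94).

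Tspan31 and Tspan4 share sequence with other genes. Of the exon bases of Tspan31, 29.2% lie in exons of Cdk4 on the opposite strand, and of those of Tspan4, 13.4% lie in exons of Chid1. Reads that fell in more than 1 gene were 8.06% of all reads against 18.9%, and it is not known whether the counting used strand, so these counts are uncertain. For each of the other 18 measured members, at most 3.61% of exon bases were shared with another counted gene.

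**Figure D3:**
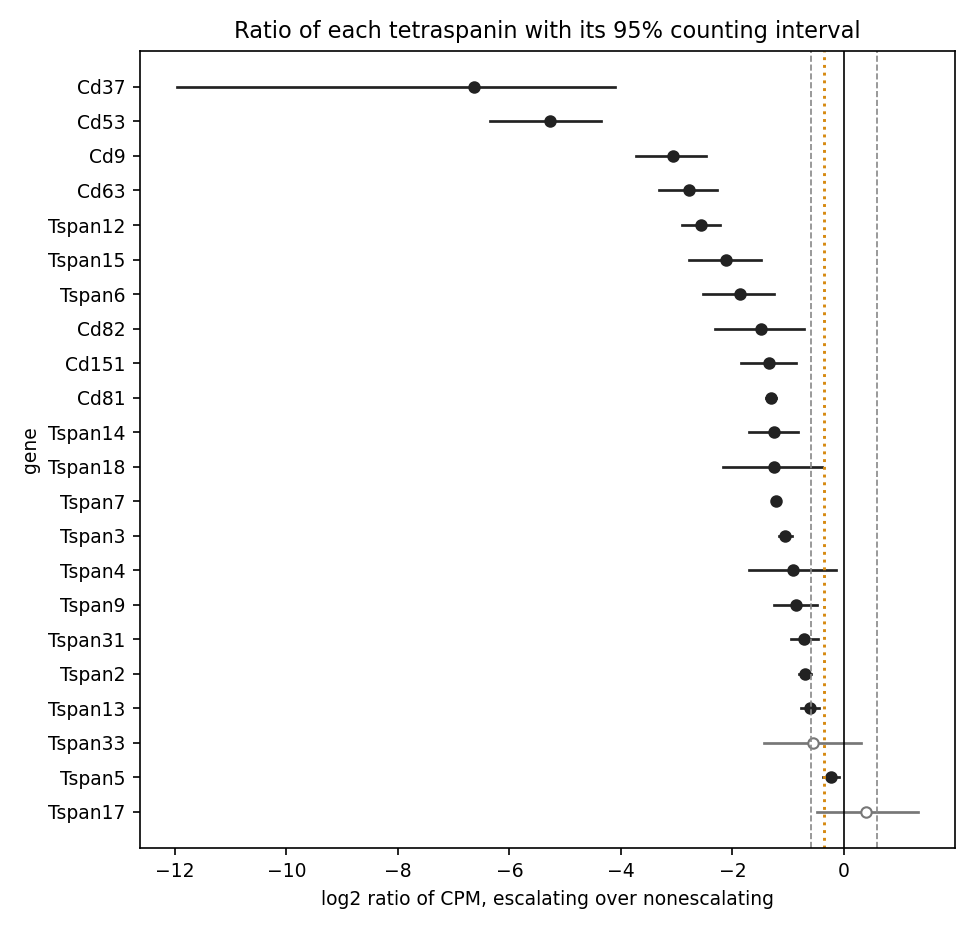
Log2 ratio of CPM (escalating over nonescalating, no pseudocount) of each tetraspanin with at least 40 counts, with exact 95% counting intervals; open grey points are Tspan33 and Tspan17, with 49 counts each. Dashed lines mark 1.5-fold and the dotted line marks where a ratio of 1 would lie with total-read scaling; the points run from Cd37 and Cd53 at the far left to Tspan5 and Tspan17 near 0.

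The remaining members were at or near 0. Tspan8 had 0 counts against 1, and Tspan1, an epithelial member, and Tspan11 had no read in either library. At this depth a listed 0 leaves room for up to 3 counts, or 0.277 CPM (escalating) and 0.363 CPM (nonescalating). Outside the rule for symbols, the uroplakin gene Upk1b had 0 counts against 13, at least 5.67-fold lower against that floor of 3 counts in the escalating library (3.99-fold by the lower bound of its exact counting interval), and Upk1a had 0 and 1. The photoreceptor tetraspanin Rom1 had 9 counts against 14, and its partner Prph2 had none.

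Marker lists of the main cell types of striatum are given as values beside the family, with no test between lists. All 12 microglial and all 10 astrocyte markers were lower, with median log2 ratios of -5.72 and -1.83 (12, 9, -5.37 and -1.47 with total-read scaling). The endothelial markers given above had a median of -0.92 (-0.56 with that scaling). The oligodendrocyte and precursor lists, also given above, had medians of -0.84 and -0.24. Of 12 projection neuron markers 1 was lower and 1 higher, with a median of -0.10 (1 lower, 4 higher and 0.26 with total-read scaling), and of 10 pan-neuronal markers 0 were lower and 2 higher, with a median of 0.32 (7 higher and 0.68 with total-read scaling). The summed pan-neuronal level was 7585 CPM against 6222 CPM. The tetraspanin median of -1.28 lay between the astrocyte and the endothelial medians. The part of cell make-up in the family's ratios was not tested.

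**Figure D4:**
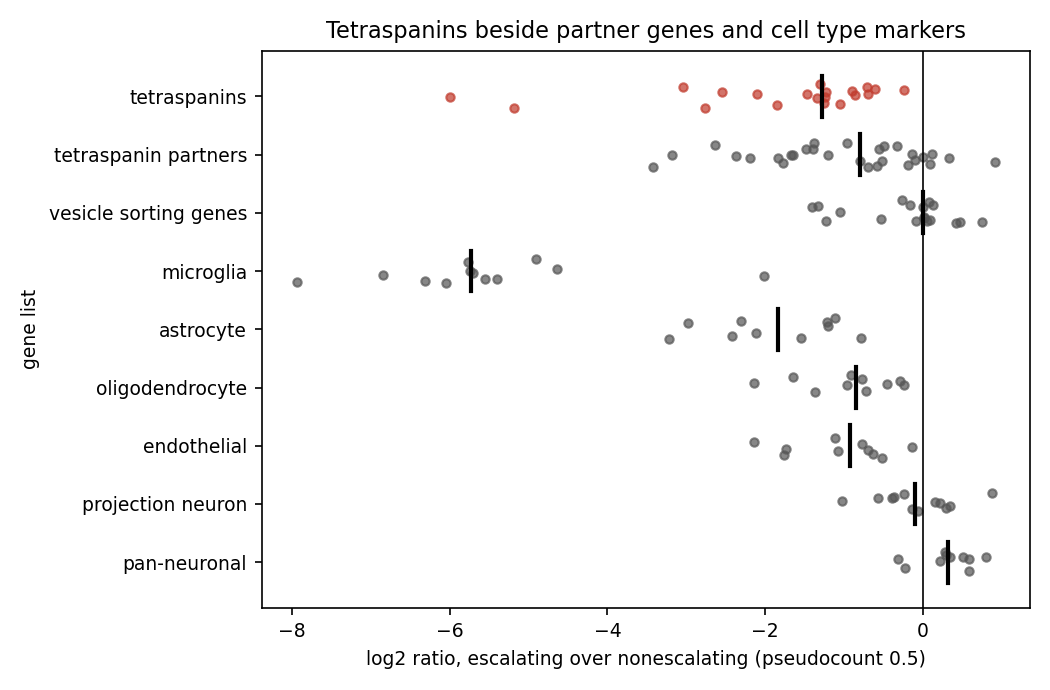
Log2 ratio (escalating over nonescalating, pseudocount 0.5) of each gene with at least 50 counts in the tetraspanin family (red) and in the lists of partner, vesicle sorting and cell type marker genes (grey); each point is a gene, the black bar is the list's median, and vertical scatter within a row has no meaning. Tetraspanins have a median of -1.28, vesicle sorting genes 0.01 and microglial genes -5.72.

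Other families of proteins that cross the membrane several times were set beside the tetraspanins as a description. Of 159 measured Tmem genes with a number, 35 were lower and 8 higher, with a median log2 ratio of -0.29 (17, 22 and 0.07 with total-read scaling). Of 4 measured claudins 3 were lower (median -1.02), and of 5 measured connexins 4 were lower (median -1.21). With total-read scaling both had 3 lower, with medians of -0.66 and -0.85. These families are not separate from the lists above. Gja1 and Gjb6 are also astrocyte markers, Cldn5 an endothelial marker and Tmem119 a microglial marker, and Cldn11 is on the oligodendrocyte and partner lists. Whether the tetraspanins differ from these families was not tested.

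The members lie on 12 chromosomes, with 5 on chromosome 6 and 5 on chromosome 7 of mm10. There were 4 pairs of neighbours within 200 kb: Cd151 and Tspan4 on chromosome 7 (141467392 to 141471473 and 141475240 to 141493427), Tspan11 and Tspan9 on chromosome 6, Tspan32 and Cd81 on chromosome 7, and Tspan18 and Cd82 on chromosome 2. Neighbours did not have like levels in every case. Cd81 led the family while Tspan32, whose end lies 33.1 kb before its start, had 1 read, and Tspan9 had 237 reads while Tspan11, 7.42 kb away, had 0. Cd53 and Tspan5, near opposite ends of the family's ratios, lie on the same chromosome, at chromosome 3, 106759921 to 106790149 and 138742195 to 138907905. Tspan7 lies on chromosome X, 10485158 to 10596605.

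The stretches just before the starts of these 3 genes are shown because they differ in CpG content: Cd53 had the fewest CpG dinucleotides of the measured members, Tspan5 the most, and Tspan7 is the member with the most reads. CpG-rich promoters are typical of widely expressed genes, and CpG-poor ones of genes limited to certain cells. Each is the 250 bases before the RefSeq start (GRCm38.p6, the assembly of mm10), 5′ to 3′ on the gene's strand, with CpG in capitals. They are chr3:106790150-106790399 on the minus strand for Cd53, chrX:10484866-10485115 on the plus strand for Tspan7 and chr3:138741958-138742207 on the plus strand for Tspan5.
Cd53: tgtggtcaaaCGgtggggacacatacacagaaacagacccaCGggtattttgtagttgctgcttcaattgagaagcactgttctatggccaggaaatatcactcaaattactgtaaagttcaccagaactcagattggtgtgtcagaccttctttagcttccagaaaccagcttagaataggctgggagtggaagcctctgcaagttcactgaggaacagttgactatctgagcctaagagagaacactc
Tspan7: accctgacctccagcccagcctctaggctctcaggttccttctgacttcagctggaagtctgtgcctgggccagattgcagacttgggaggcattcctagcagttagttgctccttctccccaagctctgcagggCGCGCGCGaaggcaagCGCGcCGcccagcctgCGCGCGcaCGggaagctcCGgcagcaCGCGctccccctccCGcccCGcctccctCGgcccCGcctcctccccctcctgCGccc
Tspan5: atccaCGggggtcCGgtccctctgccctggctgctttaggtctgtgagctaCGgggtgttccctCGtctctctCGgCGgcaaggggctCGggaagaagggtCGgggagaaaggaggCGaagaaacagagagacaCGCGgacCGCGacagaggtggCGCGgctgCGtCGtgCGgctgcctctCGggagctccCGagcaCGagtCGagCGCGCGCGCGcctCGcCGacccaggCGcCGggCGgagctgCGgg

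Cd53 had 2 CpG in this window, Tspan7 19 and Tspan5 33. RefSeq gave a window for 26 of the 27 members, and 19 of these were measured. The median was 12.5 CpG over the 26 and 6 over all 27025 genes with a window. At least 1 CpG was present in 100% of the family's windows and 91.7% of all windows; the letters CG read the same on both strands. Over the 19 measured members the log2 ratio had a Pearson's r of 0.57 and a Spearman's rho of 0.53 with the CpG count, so that members with few CpG tended to have the lower ratios. Over the 20 measured members the log2 ratio also had a Pearson's r of 0.47 and a Spearman's rho of 0.46 with the mean log2 level per kb. Both relations describe points that share their libraries, and Cd53 is 1 of the points at the low-CpG end. Neither relation was computed over all genes.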

How the data were processed

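RNA of 2 input libraries, 1 per group, was sequenced by the authors, aligned with STAR 2.0.0e to mm10 and counted with HTSeq, as the tools and build are listed per the submitters' processing notes. Neither strand setting nor annotation is named there. The authors deposited raw counts per gene symbol. Of all reads listed, 53.8% (escalating) and 55.3% (nonescalating) were assigned to a gene, and the rows for reads of no gene stayed out of library sizes. A symbol known as AK140265 held 9.66% and 24.1% of assigned reads, so sizes were scaled with TMM factors (1.13 and 0.882; edgeR 4.0.16, R 4.3.3).

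No test between groups was run, since there was 1 library per group. The pseudocount was 0.5, scaled to library size, and folds in the text carry none. Gene models, exon lengths and overlaps came from GENCODE M21 (same assembly as mm10), which held all 27 members. Promoter windows came from RefSeq on GRCm38.p6; where a gene had several starts, the one farthest upstream was used. Calls and intervals were checked on counts simulated with counting error alone, which cannot show how replicate libraries would vary. Intervals came from scipy 1.17.1, tables from pandas 2.3.3 and numpy 2.4.6, and plots from matplotlib 3.10.9, in Python 3.11.15.

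The members, lists and alternatives were chosen with earlier results of these data known. Every matched symbol is accounted for, and members with at least 50 counts are described by role. Of other lists only some genes are named, so the named genes are not the full set of calls. Alternatives were DESeq2 1.42.0 size factors, total reads with and without the 10 largest symbols, filters of 1, 40 and 200 counts, a pseudocount of 5, and calls at 2-fold or without the interval. Reads are not independent molecules, so intervals and floors cover counting error only.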

Additional observations from a re-analysis of the deposited data

How the results depend on the processing

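The 20 measured tetraspanins had 19 lower and 0 higher calls with DESeq2 size factors, a pseudocount of 5 and calls without the interval (all genes with the last: 17.7% lower and 10.1% higher). A filter of 1 count left 25 members, of which 19 were lower and 0 higher. A filter of 40 counts (added after the data were seen) left 22, of which 19 were lower and 0 higher (all genes 17.2% lower and 9.41% higher). Calls at 2-fold gave 14 lower, total reads 14, and total reads without the 10 largest symbols 17 (all genes 14.1% lower and 14.1% higher); none gave a higher call. A filter of 200 counts left 11 members, of which 10 were lower (all genes 14.9% lower and 6.89% higher), because fewer genes were tested. The median log2 ratio of the family was -0.92 with total reads, -1.17 with total reads without the 10 largest symbols and -1.05 with the filter of 200 counts, and between -1.28 and -1.24 otherwise. With total reads 5 of 20 members changed their call (Tspan2, Tspan4, Tspan9, Tspan13 and Tspan31) and 1, Tspan5, its sign. Over all genes, 35.4% of calls were higher in the main setting, 77.0% with total reads and 50.1% without the 10 largest symbols. Partner genes had 2 higher calls with total reads and 0 at 2-fold, beside 1 in the main setting, and between 11 and 17 lower calls. No paired analysis was possible because each group has 1 library, and for the same reason no library could be left out. Genes under about 50 counts, such as Tspan17 and Tspan33, have intervals too wide to show a 1.5-fold difference.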
